A study of Mus musculus with 4 samples.

Results

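The alpha class of glutathione S-transferases was followed in mouse liver through its 5 genes Gsta1, Gsta2, Gsta3, Gsta4 and Gm3776, taken by symbol from 55487 genes in the count tables. All 5 were found. The members were selected on their CPM levels in these same 4 livers, with the comparison of PA against WT already known, so that comparison is described for them without a test. Polyadenylated liver RNA came from 4 females, 11 weeks old, of FVB background and fed standard chow. The 2 WT livers were compared with 2 labelled PA, from mice given as hypomorphic Pcca-/- with the A138T form of Pcca. The product of Pcca is part of propionyl-CoA carboxylase, which removes propionyl-CoA in mitochondria, and people who lack this enzyme have propionic acidemia. The comparison asks how transcripts of these livers differ between the genotypes.

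Glutathione S-transferases join the tripeptide glutathione to electrophilic compounds, which makes them more soluble and marks them for export from the cell. The alpha class is abundant in hepatocytes. Gsta3 is the main constitutive member in mouse liver and its protein is known for conjugating the epoxide of aflatoxin B1. Gsta4 encodes the form that prefers 4-hydroxynonenal, an aldehyde made by lipid peroxidation. Gsta1 and Gsta2 are known as inducible genes that are low in untreated liver and respond to antioxidants and other drugs, in part through the transcription factor NRF2, and Gm3776 is a gene model beside Gsta1.

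In GRCm38 coordinates, Gsta4 (ENSMUSG00000032348, chromosome 9, 78182774 to 78209349, plus strand), Gsta1 (ENSMUSG00000074183, 78230656 to 78242684, plus strand), Gm3776 (ENSMUSG00000111709, 78257129 to 78269166, plus strand) and Gsta2 (ENSMUSG00000057933, 78331018 to 78355788, minus strand) lie side by side. The protein-coding gene Gm10639 (ENSMUSG00000074179, 78289923 to 78305525, plus strand) lies between Gm3776 and Gsta2. Gsta3 (ENSMUSG00000025934, chromosome 1, 21240589 to 21265661, plus strand) stands on its own. All 5 members are annotated as protein-coding.

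How well reads can be told apart among these genes follows from their sequence, so the start of the coding sequence is shown for each member. The lines below give the first 60 coding bases of the longest coding transcript of each gene in GENCODE M21, with capitals where a base differs from Gsta1.
Gsta1: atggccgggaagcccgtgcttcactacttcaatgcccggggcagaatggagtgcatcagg
Gm3776: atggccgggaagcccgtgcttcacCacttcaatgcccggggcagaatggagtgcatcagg
Gsta2: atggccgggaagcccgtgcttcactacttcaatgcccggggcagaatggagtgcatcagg
Gsta3: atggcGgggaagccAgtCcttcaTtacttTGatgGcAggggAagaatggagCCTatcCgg
Gsta4: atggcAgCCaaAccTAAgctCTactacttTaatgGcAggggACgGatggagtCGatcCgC
Over the whole coding sequence of 672 bases, Gsta1 and Gm3776 differed at 2 positions, T25C and C591T, counted from 1 at the start codon with the base of Gsta1 first. They were 99.7% identical. Gsta1 and Gsta2 were 97.5% identical, and Gm10639 was 98.5% identical to Gsta2. Gsta3 and Gsta4 stood apart, with 74.0 and 66.0% identity to Gsta1.

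The same order appeared when whole transcripts were cut into overlapping stretches and searched for in the transcripts of every other gene. Of stretches of 100 bases, 81.8% of those of Gsta1 and 85.5% of those of Gm3776 were found without a mismatch in another gene. For Gsta2 the share was 35.0%, and for Gsta3 and Gsta4 it was 0. The sharing partners of Gsta1 were Gm3776 (71.3% of stretches), Gsta2 (19.8%) and Gm10639 (13.3%). The sources used here give no read length, so stretches of 75 and 150 bases were searched too. The shares for Gsta1 were then 86.3 and 73.7%, and for Gm3776 89.1 and 77.7%.

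**Figure D1:**
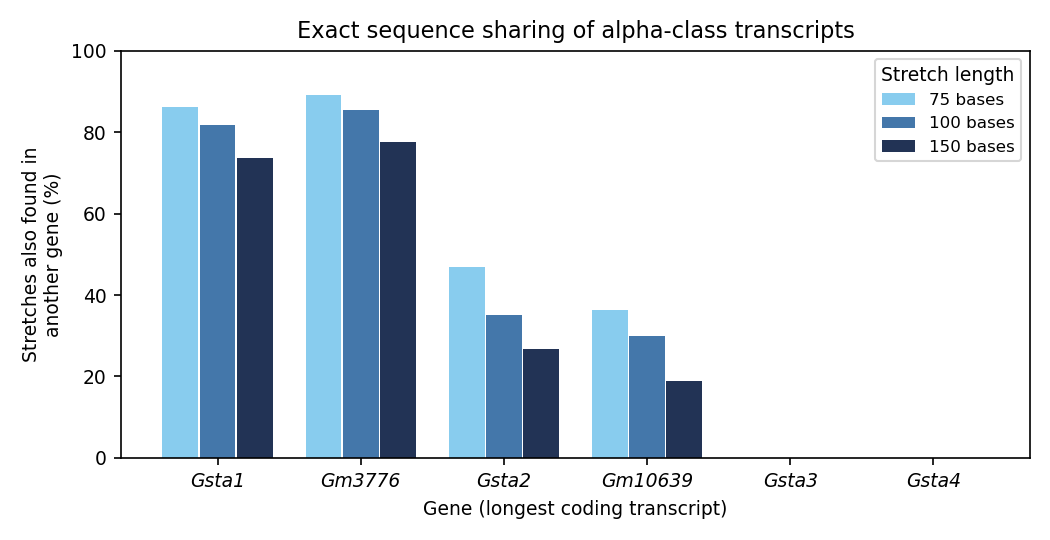
Share of overlapping stretches of each gene's longest coding transcript (vertical axis, percent) that also occur exactly in a transcript of another gene, for stretches of 75, 100 and 150 bases (bar shades). Gsta1 and Gm3776 share most of their sequence, Gsta2 and Gm10639 a smaller part, and Gsta3 and Gsta4 have no bar because their share is 0.

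The gene starts were compared as well, since 3 of the neighbours on chromosome 9 had their highest values in the same PA library. RefSeq promoter windows (GRCm38.p6, 250 bases before to 50 after the start) were at hand for Gsta1 (chr9:78230419-78230718, plus strand), Gm3776 (chr9:78256879-78257178, plus strand), Gsta2 (chr9:78347096-78347395, minus strand) and Gsta3 (chr1:21240335-21240634, plus strand), and not for Gsta4. The RefSeq starts lay within 13 bases of the start of the coding transcript used above for each gene. For Gsta2 the gene model begins 8.64 kb further upstream, at the start of another transcript, and that start was not examined. The windows are given 5′ to 3′ with motif matches in capitals.
Gsta1: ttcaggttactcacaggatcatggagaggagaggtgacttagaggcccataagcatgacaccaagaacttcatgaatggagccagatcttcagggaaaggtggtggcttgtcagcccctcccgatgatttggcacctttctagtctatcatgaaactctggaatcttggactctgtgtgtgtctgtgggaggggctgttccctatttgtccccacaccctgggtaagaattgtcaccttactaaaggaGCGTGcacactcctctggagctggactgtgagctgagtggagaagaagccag
Gm3776: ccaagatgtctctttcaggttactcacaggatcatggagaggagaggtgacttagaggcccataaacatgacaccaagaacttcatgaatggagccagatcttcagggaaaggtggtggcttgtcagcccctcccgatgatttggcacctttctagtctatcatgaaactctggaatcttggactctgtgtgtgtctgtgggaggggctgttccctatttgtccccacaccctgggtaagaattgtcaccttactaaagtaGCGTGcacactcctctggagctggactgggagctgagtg
Gsta2: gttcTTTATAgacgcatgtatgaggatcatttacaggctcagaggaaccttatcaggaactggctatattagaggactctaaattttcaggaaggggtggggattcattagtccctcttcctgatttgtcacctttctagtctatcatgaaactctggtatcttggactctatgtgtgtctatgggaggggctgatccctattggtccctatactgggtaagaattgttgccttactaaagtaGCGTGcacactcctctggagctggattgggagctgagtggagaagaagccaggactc
Gsta3: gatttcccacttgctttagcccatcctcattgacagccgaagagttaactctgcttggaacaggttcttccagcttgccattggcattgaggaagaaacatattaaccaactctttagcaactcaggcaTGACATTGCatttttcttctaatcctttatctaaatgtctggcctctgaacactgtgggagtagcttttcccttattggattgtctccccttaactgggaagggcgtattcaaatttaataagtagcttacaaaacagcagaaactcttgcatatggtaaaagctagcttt
The windows of Gsta1 and Gm3776 were 90.7% identical and those of Gsta1 and Gsta2 74.6%, while Gsta3 was 50.5% identical to Gsta1. Each window was searched on both strands for 4 motifs, and no matches overlapped. The core GCGTG of the xenobiotic response element is bound by the aryl hydrocarbon receptor. This core began 2 bases before the start of Gsta1 and ran across that start. It began 7 bases before the start of Gsta2 and 11 bases after that of Gm3776. It occurs in 32.4% of the 32851 windows of this length. The 3 matches sit in the same surrounding sequence of these similar windows, so they are not separate finds. The window of Gm10639, 97.4% identical to that of Gm3776, was searched too and held no match to any of the 4 motifs. The core TGACNNNGC of the antioxidant response element, bound by NRF2, occurred in the window of Gsta3 alone among these 4 genes, 121 bases before the start, as TGACATTGC. It occurs in 12.4% of all windows. The letters TATAAA (13.6% of all windows) matched on the reverse strand in Gsta2, and the palindromic HNF1 site (0.00913%) matched in none of the 4. A match is a string of letters and not a measured binding site. Sequence more than 250 bases before the start was not searched, so a window without a match does not show that the gene lacks the element.

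The libraries held 25575016 to 30110400 reads counted in genes, so 3 counts equal 0.0996 to 0.117 CPM (counts scaled to a common library size). Levels below are CPM on library sizes scaled by the TMM method unless another scale is named. The check of the genotype is limited: Pcca, 60.3 and 58.9 CPM in WT, was at 34.2 and 47.4 CPM in PA (-0.55 on the log2 scale; edgeR quasi-likelihood test, adjusted p = 0.398), and a gene-level count does not tell the A138T transcript from others. The share of counts in mitochondrially encoded genes was 6.90 and 7.38% for WT and 13.6 and 8.98% for PA replicates 1 and 2. The share of reads with several mapping places was 9.11 and 9.42% for WT and 13.5 and 9.19% for PA. PA replicate 1 therefore stands apart on both measures by STAR. By the deposited TPM values the mitochondrial share was 10.6 and 11.7% in WT and 20.7 and 17.1% in PA. On that scale both PA livers were above both WT livers.

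The tissue label matched the marker genes. The 10 hepatocyte markers, led by Alb, summed to 159288 and 176728 CPM in WT and 148711 and 180613 CPM in PA, and none was called different. Kidney tubule and small intestine, which also make alpha-class transferases, were checked by 6 markers each. The kidney markers summed to at most 0.785 CPM, with Umod, Kap, Aqp2 and Slc12a1 at 0. Of the intestine markers, Cdx2, Lct and Sis were at 0, and nearly all of the sum of 243 to 376 CPM was Apoa4 with Fabp2, which liver also makes. Fabp2, a fatty acid binding protein gene, was called lower in PA, at 101 and 97.0 CPM in WT and 44.4 and 37.5 CPM in PA (edgeR adjusted p = 0.0487). Sums of Kupffer cell markers were 440 to 508 CPM in WT and 218 to 307 in PA. Those of erythroid markers were 47.5 to 88.5 in WT and 11.9 to 16.8 in PA, and 2 of 5 erythroid markers were called lower. Of all genes tested, 0.548% were called lower. The sums were 266 to 291 CPM in WT and 220 to 226 in PA for 6 endothelial markers, 101 to 127 and 97.1 to 102 for 6 stellate cell markers, 34.3 to 48.3 and 29.8 to 32.6 for 6 bile duct markers, and 4.14 to 5.22 and 2.12 to 2.59 for 6 lymphocyte markers, with none called. The part of these shifts in the values below was not tested. In a bulk sample, fewer cells of a type and less RNA per cell cannot be told apart.

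Gsta1 was close to undetected in WT liver and clearly read in PA liver. It had 7 counts in each WT library, which is 0.228 and 0.275 CPM, and 184 and 132 counts in PA replicates 1 and 2, which is 7.22 and 4.44 CPM. Both PA livers were far above both WT livers, and PA replicate 1 was the higher of the PA pair. On the log2 scale the fold change was 4.52 (standard error 0.42), and the ratio of summed counts was 23.0 (95% exact counting interval 13.5 to 42.5). Such an interval covers counting error only and leaves out the spread between livers.

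Gm3776 followed Gsta1 at lower counts. STAR gave it 1 and 2 counts in WT and 87 and 72 in PA, or 0.0326 and 0.0785 CPM against 3.42 and 2.42 CPM. With 3 WT counts in all, the ratio of 53.9 carries a counting interval of 18.1 to 264. Its fitted log2 fold change of 5.65 depends on the prior count. It was the member whose size depended most on how reads were counted, as the next counts show.

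Gsta2, the more abundant of the inducible genes, was at 19.1 and 16.7 CPM in WT and 162 and 99.2 CPM in PA. The groups did not overlap, and again PA replicate 1 was higher. The means were 17.9 ± 1.71 and 130 ± 44.1 CPM (SD, n = 2 each), with a log2 fold change of 2.86 and a standard error of 0.29.

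Gsta4 was at 32.3 and 41.3 CPM in WT and 88.6 and 111 CPM in PA (36.8 ± 6.35 and 99.9 ± 15.9, SD, n = 2 each). On the log2 scale the fold change was 1.44 (standard error 0.23). Here PA replicate 2 was the higher, in contrast to Gsta1, Gsta2 and Gm3776.

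Gsta3, the most abundant member, was at 1509 and 1955 CPM in WT and at 2933 and 2718 CPM in PA. The means were 1732 ± 315 and 2825 ± 152 CPM (SD, n = 2 each), a log2 fold change of 0.71 with a standard error of 0.28. The groups did not overlap, and the WT pair was spread more widely than the PA pair.

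**Figure D2:**
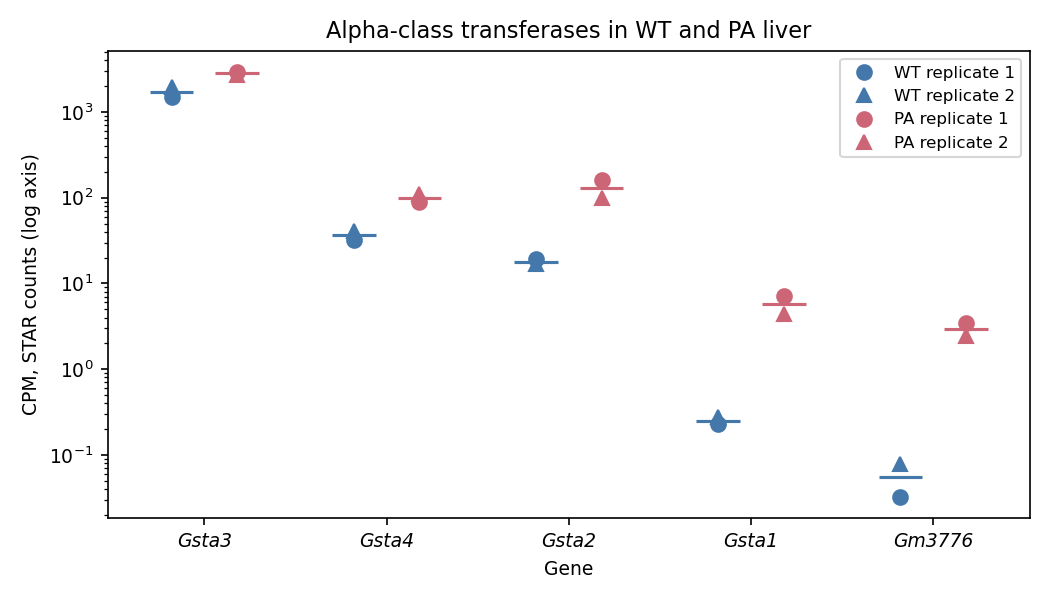
CPM from STAR counts (vertical log axis) of the 5 alpha-class genes in each liver; circles are replicate 1, triangles replicate 2, and the horizontal bar is the mean of the group. Each PA liver lies above each WT liver for every member, with the widest separation for Gsta1 and Gm3776 and the narrowest for Gsta3.

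In all 5 members both PA livers were above both WT livers, an order that 21.3% of the 14411 genes tested also had; groups without overlap in either direction made up 43.2%. The members were picked with the comparison in view, so nothing is read from that order. Gsta1 and Gm3776 passed the filter on low counts through the PA livers alone.

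The deposited data counted the same libraries in 2 ways, and the close paralogs differed between them. A read that fits several genes is dropped from the STAR table, whereas RSEM divides it among them by its model. RSEM gave Gsta1 35.9 and 16.3 counts in WT and 639 and 469 in PA. Over the 4 libraries that is 3.51 times the STAR count, above 98.8% of genes tested. For Gm3776 RSEM gave 41.8 and 23.7 counts in WT and 545 and 346 in PA, 5.90 times STAR and above 99.2% of genes. The median ratio over all genes tested was 0.858. Gsta2, at 1.05, was also above most genes (92.7%), while Gsta3 (0.815) and Gsta4 (0.821) lay in the lower part of the range.

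**Figure D3:**
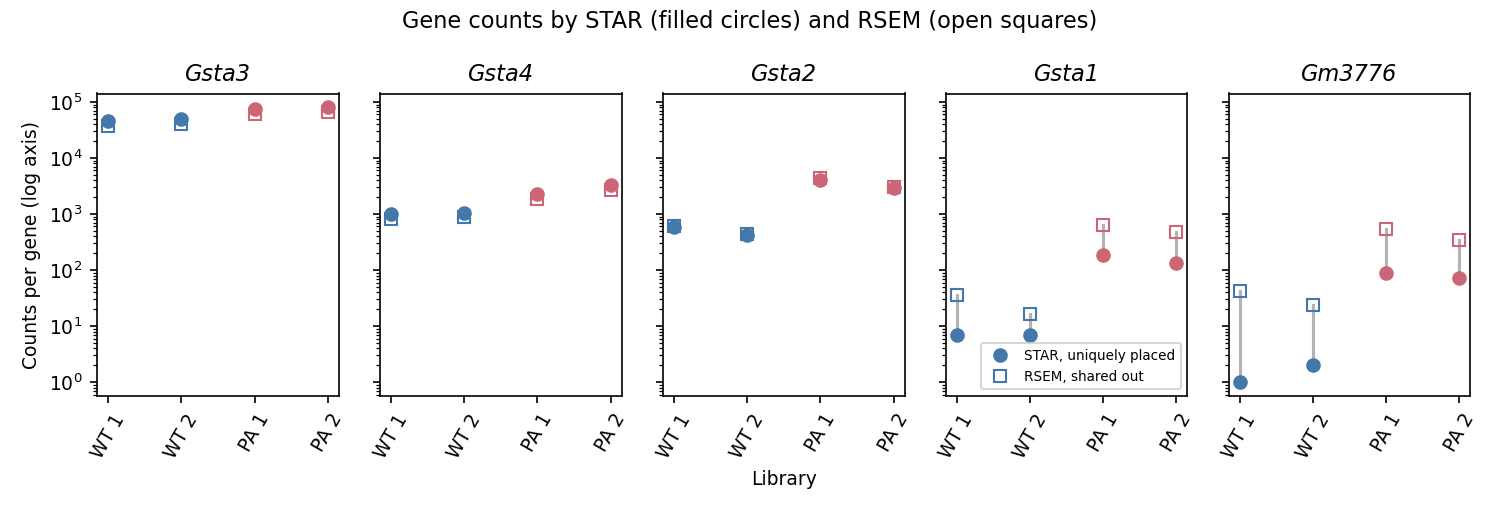
Counts per gene (vertical log axis) in each library from STAR (filled circles) and RSEM (open squares), with a grey line joining the 2 values of 1 library; blue is WT and red is PA. The 2 counts nearly coincide for Gsta3, Gsta4 and Gsta2, and RSEM lies several times above STAR for Gsta1 and Gm3776 in every library.

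The fold change of Gsta1 was nearly the same by both counts, and that of Gm3776 was not. With RSEM counts the log2 fold changes were 4.52 for Gsta1, 2.89 for Gsta2, 3.86 for Gm3776, 0.73 for Gsta3 and 1.47 for Gsta4. The lower value of Gm3776 came with its WT level: RSEM gave 21.8 times the STAR counts in WT and 5.60 times in PA. The split between the near-identical pair differed too. Gsta1 held 87.5 and 77.8% of the STAR counts of the pair in WT and 67.9 and 64.7% in PA, but 46.2 and 40.7% of the RSEM counts in WT and 54.0 and 57.5% in PA. By STAR the share of Gsta1 was lower in PA, by RSEM higher, so the data give no settled order within the pair. The WT percentages by STAR rest on 8 and 9 reads.

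Summing the pair takes this split out. Gsta1 and Gm3776 together were at 0.307 ± 0.0655 CPM for WT and 8.75 ± 2.67 CPM for PA by STAR, and at 2.05 ± 0.658 and 38.0 ± 14.4 CPM by RSEM (SD, n = 2 each). PA exceeded WT 28.5-fold and 18.6-fold. With Gsta2 added, the sum was 18.2 ± 1.64 and 139 ± 46.8 CPM by STAR and 20.9 ± 2.25 and 178 ± 65.3 CPM by RSEM, 7.64-fold and 8.52-fold higher in PA. The sum of the 3 genes is therefore mainly Gsta2, and its ratio of PA to WT moved little with the counter. Its PA level and make-up did differ: the pair held 8.75 of 139 CPM by STAR and 38.0 of 178 CPM by RSEM. The mice were FVB and the reference genome is of C57BL/6J; how strain differences place reads within the cluster was not tested.

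Gm10639, the remaining alpha-class gene of the cluster, was barely read. STAR gave 0 and 3 counts in WT and 23 and 13 in PA, a summed ratio of 12.2 whose counting interval runs from 3.86 to 62.0 (edgeR adjusted p = 0.197). RSEM gave 0 in both WT libraries and 11.8 and 6.98 in PA.

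Per length, the deposited TPM values order the members. In WT liver Gsta3 was at 1632 and 1984 TPM, followed by Gsta4 at 41.7 and 51.6 TPM and Gsta2 at 39.8 and 33.0 TPM. Gm3776 (2.47 and 1.60 TPM) and Gsta1 (2.12 and 1.10 TPM) overlapped and were lowest. In PA liver Gsta3 stayed first at 2364 and 2727 TPM. Gsta2 came second with 251 and 193 TPM, above Gsta4 with 87.3 and 137 TPM. Gsta1 (35.4 and 28.0 TPM) and Gm3776 (29.4 and 20.0 TPM) overlapped again. The order of Gsta2 and Gsta4 thus differed between the groups. The TPM of Gsta2 was 0.955 and 0.640 times that of Gsta4 in the WT livers and 2.87 and 1.41 times in the PA livers.

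Gsta3 made up most of the class in every liver. Its share of the summed TPM of the 5 members was 95 and 95.8% in WT and 85.4 and 87.8% in PA. The share of Gsta2 was 2.32 and 1.59% in WT and 9.07 and 6.21% in PA, and that of Gsta4 was 2.43 and 2.49% in WT and 3.16 and 4.40% in PA. The member with the smallest fold change made up most of the difference in transcripts. Of the difference of 1041 TPM between the group means of the sum, Gsta3 accounted for 70.8%, Gsta2 for 17.8%, Gsta4 for 6.28%, Gsta1 for 2.89% and Gm3776 for 2.18%. TPM fold changes, which rest on RSEM, were smaller than those in CPM. For Gsta3 the TPM value was 1.41, against 1.63 in CPM by STAR and 1.66 in CPM by RSEM. For Gsta2 it was 6.10, against 7.29 by STAR and 7.43 by RSEM. Mitochondrially encoded genes took 10.6 and 11.7% of all TPM in WT and 20.7 and 17.1% in PA. TPM values sum to the same total in each library. How much of the gap between TPM and CPM fold changes goes with this share was not tested.

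The other transferase classes are set beside the alpha class. Over all 14411 genes tested, edgeR called 117 at an adjusted p of 0.05 (0.812%), 38 of them higher in PA (0.264%) and 79 lower (0.548%). An unadjusted p under 0.05 was reached by 11.8% of genes, and DESeq2 called 3.07%. The counts for each list below stand against these shares. None of the 9 mu and pi class genes tested was called by edgeR, although 5 had an unadjusted p under 0.05, and DESeq2 called 3. Their median log2 fold change was 0.64, against 0.0049 over all genes tested, and 7 of 9 were positive (50.6% over all genes). Gstm3 was at 35.4 and 21.9 CPM in WT and 211 and 95.5 CPM in PA (log2 fold change 2.42, edgeR adjusted p = 0.0622; 1.74 without PA replicate 1). Gstm1, the most abundant of the mu class, was at 864 and 806 CPM in WT and 2262 and 1646 CPM in PA (edgeR adjusted p = 0.138). Gstp1 was at 63.8 and 64.2 CPM in WT and 215 and 117 CPM in PA (edgeR adjusted p = 0.131). These 3 genes were higher in PA replicate 1 than in PA replicate 2, as Gsta1 and Gsta2 were.

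Of 9 genes tested from the theta, zeta, omega, kappa, sigma and microsomal classes, none was called by edgeR or DESeq2, 2 had an unadjusted p under 0.05 and the median was 0.11. Mgst1, a membrane-bound transferase, was the most abundant at 3579 and 3404 CPM in WT and 3118 and 2164 CPM in PA. Gstz1, which acts in tyrosine breakdown, was at 1043 and 1082 CPM in WT and 852 and 814 CPM in PA, and Gstt1 at 322 and 314 CPM in WT and 343 and 376 CPM in PA. In summed TPM the 5 alpha genes made up 13.9 and 18.3% of the 27 transferases in WT and 24.4 and 28.5% in PA. The summed TPM of the mu and pi classes was 1383 ± 159 in WT and 2593 ± 288 in PA, and that of the remaining classes 8582 ± 832 and 5572 ± 266 (SD, n = 2 each).

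Genes that make, recycle and use glutathione had list medians near that of all genes. With lists of this length and the shares above, a count of 0 calls is what the background gives. Of 13 genes of glutathione synthesis and salvage, none was called by edgeR or DESeq2 (2 at an unadjusted p under 0.05, median log2 fold change 0.05). Gclc, the catalytic subunit of the rate-limiting ligase and a well-known NRF2 target, was at 166 and 138 CPM in WT and 172 and 244 CPM in PA (log2 fold change 0.45, edgeR adjusted p = 0.565). Gclm, its modifier subunit, overlapped between the groups (136 and 157 CPM against 157 and 175 CPM). Of 15 genes of glutathione-dependent reduction and aldehyde removal, none was called by edgeR or DESeq2, 3 had an unadjusted p under 0.05 and the median was 0.06. The glutathione peroxidase gene Gpx4 stood high in PA replicate 1 alone, at 253 and 244 CPM in WT and 587 and 249.8 CPM in PA. Gpx1 was at 1060 and 866 CPM in WT and 1003 and 990 CPM in PA. Adh5, which oxidises the glutathione adduct of formaldehyde, was at 569 and 620 CPM in WT and 628 and 498 CPM in PA.

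Of 8 genes for export of glutathione conjugates, 1 was called higher and none lower (0.264 and 0.548% over all genes), with a median of 0.12. Abcc4, an efflux pump for organic anions, rose from 1.53 and 2.24 CPM in WT to 7.89 and 12.9 CPM in PA (2.47 ± 0.34 on the log2 scale, standard error; edgeR adjusted p = 0.0313). The canalicular pump Abcc2, which carries glutathione conjugates into bile, was at 284 and 394 CPM in WT and 301 and 312 CPM in PA. Abcc3, on the sinusoidal side, was at 105 and 132 CPM in WT and 167 and 142 CPM in PA (edgeR adjusted p = 0.584). Transcripts of 16 transcription factors of the drug and oxidant response gave no call by edgeR or DESeq2 (2 at an unadjusted p under 0.05, median 0.09). The most abundant, Hnf4a, was at 557 and 461 CPM in WT and 511 and 568 CPM in PA, and the drug receptor Nr1i3 at 135 and 233 CPM against 175 and 160 CPM. Nfe2l2, which encodes NRF2, was at 33.5 and 49.8 CPM in WT and 55.8 and 44.4 CPM in PA, overlapping between groups. Its inhibitor Keap1 overlapped too, at 36.9 and 36.0 CPM against 34.9 and 42.5 CPM. Ahr, the aryl hydrocarbon receptor, was at 25.1 and 28.0 CPM in WT and 38.9 and 41.0 CPM in PA (edgeR adjusted p = 0.273).

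**Figure D4:**
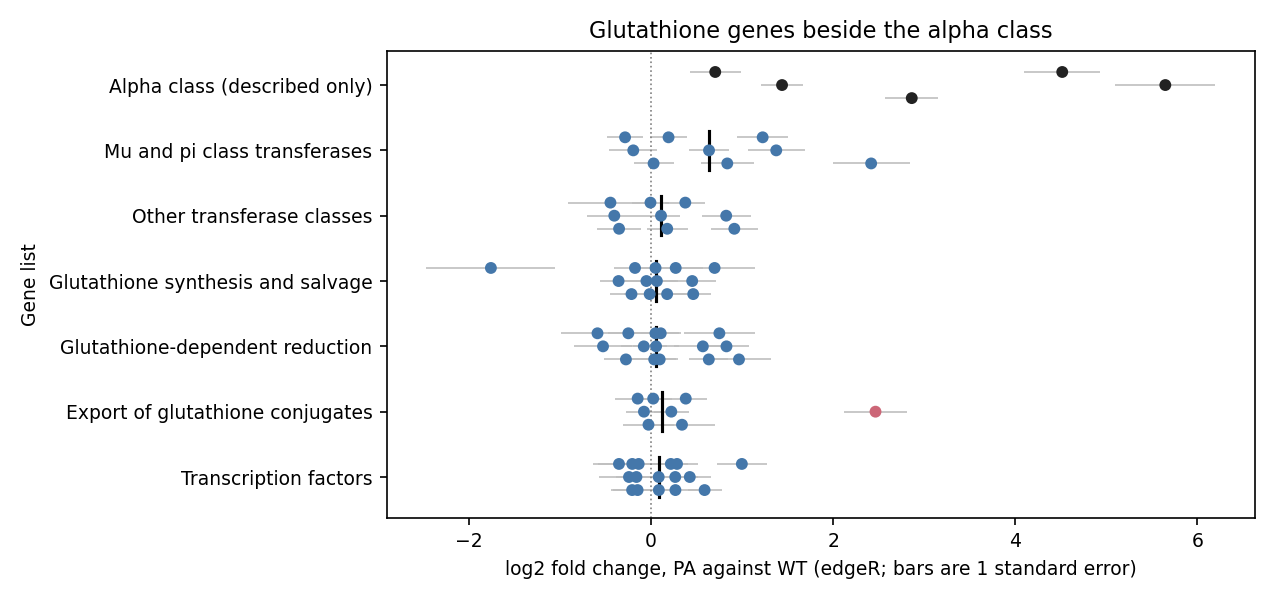
Log2 fold change of PA against WT (horizontal axis, with grey bars of 1 standard error) for the alpha class (black, described only). The other points are the genes tested of 6 lists of glutathione genes and transcription factors. Blue is not called, red is called, and the vertical stroke is the median of the list. The list medians lie between 0.05 and 0.64, and Abcc4 is the only red point.

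Genes beside the cluster on the chromosome did not share its size of difference. Ick, a kinase gene 10.7 kb from Gsta4, was at 12.0 and 10.6 CPM in WT and 12.9 and 13.6 CPM in PA (log2 fold change 0.23, edgeR adjusted p = 0.722). Mto1, a mitochondrial tRNA modification gene 92.4 kb from Gsta2 on the other side, was at 9.45 and 10.8 CPM in WT and 8.48 and 13.2 CPM in PA (edgeR adjusted p = 0.93). Beside Gsta3, Tmem14a at a distance of 10.4 kb was at 5.38 and 6.21 CPM in WT and 7.77 and 6.76 CPM in PA (edgeR adjusted p = 0.649), and Ogfrl1, 2101 kb away, was at 14.7 and 17.1 CPM in WT and 12.6 and 15.1 CPM in PA (edgeR adjusted p = 0.78).

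The genes most like each member over the 4 libraries were found by the distance between centred log2 CPM, among 12389 other protein-coding genes. Nearest to Gsta1 were the estrogen sulfotransferase Sult1e1 (distance 0.71), the tubulin Tuba8 (0.98) and Bex2 (1.25), and nearest to Gm3776 were Sult1e1 (0.92), the anion exchanger Slc4a9 (1.15) and Tuba8 (1.34). Nearest to Gsta2 were the annexin Anxa8 (0.35), the semaphorin Sema3b (0.40) and the prostaglandin F receptor Ptgfr (0.46). Most of these are read at few CPM: Sult1e1 was at 0.163 and 0.118 CPM in WT and 7.42 and 2.66 CPM in PA, and Anxa8 at 0.0326 and 0.0393 CPM in WT and 1.02 and 0.437 CPM in PA. The prior count of 2 in these log2 values shrinks the differences of such low genes. The fitted log2 fold change of Anxa8 was 4.18, against 2.86 for Gsta2, so a small distance need not mean an equal fold change. For the members with smaller folds, the nearest were Tnnc1 (0.14), Smpd3 (0.17) and Idh2 (0.20) to Gsta4, and Hsd17b11 (0.07) and Pelo (0.08) were among the nearest to Gsta3. Idh2, the mitochondrial NADP-dependent isocitrate dehydrogenase, was at 64.8 and 75.5 CPM in WT and 174 and 186 CPM in PA, so its PA replicate 2 was the higher, as for Gsta4. Hsd17b11, a lipid droplet dehydrogenase, was at 85.6 and 110 CPM in WT and 171 and 163 CPM in PA. Distances over 4 libraries rest mainly on the difference between the groups.

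Leaving out 1 liver at a time moved the size of each difference; its direction is fixed by the choice of members, whose groups do not overlap. With PA replicate 1 dropped, the fitted log2 values were 4.13 for Gsta1, 2.47 for Gsta2, 5.39 for Gm3776, 0.65 for Gsta3 and 1.60 for Gsta4. With PA replicate 2 dropped they were 4.83, 3.17, 5.88, 0.76 and 1.27. The livers left in such a fit are 1 against 2, and the spread is then taken from the pair. The WT livers mattered most for Gsta3 and for Gm3776, with 0.52 and 5.12 when WT replicate 1 was dropped and 0.91 and 6.31 when WT replicate 2 was.

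**Figure D5:**
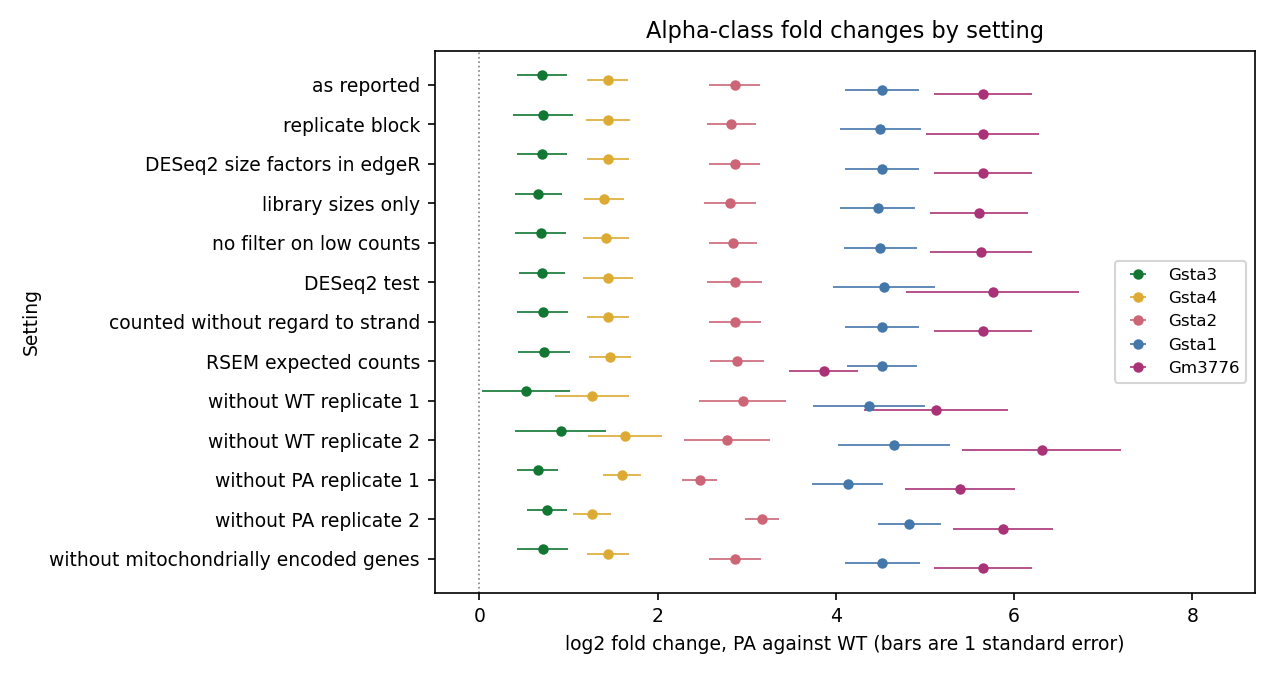
Log2 fold change of each member (horizontal axis; bars are 1 standard error) as reported and under each of 12 other settings (vertical axis). Every point lies right of 0, the order of the members holds in 12 of the 13 rows, and with RSEM counts Gm3776 at 3.86 falls below Gsta1 at 4.52.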

How the data were processed

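Liver RNA of 4 mice was measured. Read counts per gene by STAR were deposited by the authors without normalisation, and per the file headers RSEM expected counts, TPM and FPKM were deposited too (FPKM was not used). Per the submitters' processing notes the tools were STAR 2.7.6a and RSEM 1.3.3 and the build GRCm38; the annotation release and read length were not given in the sources used here. The opposite-strand STAR column, with 97.0 to 97.1% of stranded counts, was tested. Summary lines that name no gene (28.1 to 34.3% of reads) were left out. GENCODE M21 gave symbols for 55227 of 55487 identifiers.

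PA was compared with WT by the quasi-likelihood test of edgeR 4.0.16 (R 4.3.3; TMM, filterByExpr at 10 counts or 0.36 CPM in the median library, genotype as the only term, prior count 0.125), adjusted by Benjamini-Hochberg at 0.05. Alternatives were DESeq2 1.42.0, other scalings and filters, a replicate block, unstranded counts, RSEM expected counts rounded to whole numbers, and leaving out each library. Standard errors are the log2 fold change over the root of F. Counting intervals are exact binomial at 95% and cover counting error only. Groups and replicate numbers come from the titles, and the series calls the replicates biological.

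The members and lists were chosen with earlier results of these data known. Named genes were the members, their 3 nearest genes by Euclidean distance of centred log2 CPM (prior count 2), list members that were called or among the 3 most abundant, flanking genes and Pcca; Nfe2l2, Keap1 and Ahr fall outside this rule and were added for their role after their values were seen. A gene chosen by this rule is left unreported. Replicate pairs differed beyond sampling noise (chi-square per degree of freedom 46.3 for WT and 135 for PA). On simulated counts for the 14411 genes of PA against WT, recovery was 25.9% for log2 changes of 1, 93.0% for 2 and 94.9% for 3, with 5.32% false calls. The simulated spread followed the trend over expression level and left out spread particular to single genes. Recovery in the real livers may therefore be lower.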

Additional observations from a re-analysis of the deposited data

How the results depend on the processing

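Over the 12 alternatives, log2 fold changes ran from 4.13 to 4.83 for Gsta1, 2.47 to 3.17 for Gsta2, 3.86 (RSEM) to 6.31 (without WT replicate 2) for Gm3776, 0.52 to 0.91 for Gsta3 and 1.27 to 1.64 for Gsta4, and the Gm3776 value with RSEM counts was the only one to move by more than the replicate spread. The log2 ratio of the summed Gsta1, Gsta2 and Gm3776 was 2.93 and lay at 2.55 to 3.24 when 1 library was left out, and that of the 5 members, 0.78, at 0.60 to 0.98. The number of genes called was 117, against 318 with the replicate number as a block, 902 with no filter on low counts and 442 with DESeq2; with 1 library left out it was 155 (WT replicate 1), 221 (WT replicate 2), 303 (PA replicate 1) and 500 (PA replicate 2). The glutathione lists together had 1 call, against 3 with the replicate block, 12 with no filter, 4 with DESeq2, and 1 to 9 with 1 library left out (most when PA replicate 2 was dropped, 4 when it was PA replicate 1 and 2 when it was WT replicate 1). The cause was not tested. Counted among the glutathione lists here were also the list of transcription factors and Gm10639. Same-numbered livers did not deviate together (correlation -0.091 across genes), so the block rests on shared numbers only. Some uncalled genes near 0 on the log2 scale changed sign. Abcc6 was at -0.025 on library sizes only. With 1 library left out, Abcc6 ran from -0.11 to 0.18, Mto1 from -0.26 (also -0.0031) to 0.39, Lap3 from -0.070 to 0.22, Gpx1 from -0.080 to 0.19, Hnf4a from -0.036 to 0.22, Abcc2 from -0.37 to 0.12, Nr1i3 from -0.48 to 0.32 and Adh5 from -0.25 to 0.078. The fit without mitochondrially encoded genes, chosen after seeing the data, called 138 genes. In WT liver 3 counts equal 0.101 and 0.117 CPM on library sizes without TMM scaling. The WT levels of Gsta1 and Gm3776 rest on 14 and 3 counts.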
